A study of Mus musculus with 8 samples.

Results

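In 2 of 5 mitoferrin knockout livers, most genes of the circadian clock stood at other levels than in the remaining 3 knockouts and in all 3 controls. The 2 livers were chosen by Dbp (ENSMUSG00000059824, plus strand of chromosome 7, 45705088 to 45710155 on mm10), a transcription factor gene that the clock switches on and off each day. The rule took each knockout library's Dbp level in CPM, the count per mega (M) reads of the raw library total, and split the 5 libraries at 20 CPM. Knockout replicates 1 and 2 stood above it, at 69.9 and 55.7 CPM (2025 and 1639 reads), and are called the Dbp-high livers. Knockout replicates 3, 4 and 5 stood below it, at 2.33, 1.83 and 1.76 CPM (61, 45 and 56 reads), and are called the Dbp-low livers. The members just inside and just outside the threshold were therefore 55.7 and 2.33 CPM, and the 3 control livers, to which the rule was not applied, held 2.995, 1.21 and 1.58 CPM.

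The series holds 8 liver RNA-seq libraries, 3 labelled wild type and 5 labelled Alb-cre Mfrn1-/- Mfrn2 -/-, from mice kept on standard chow and described as age-matched. Alb-cre expresses Cre recombinase in hepatocytes. Whether either gene was also lost from other cells of the liver is not stated in the labels, and the controls are not described as carrying Cre. Mfrn1 and Mfrn2 are Slc25a37 and Slc25a28, carriers that bring iron into mitochondria. Both sets of knockout livers share that genotype. The labels used here give no age, sex, hour of collection or feeding state, so a difference in the hour and any other difference between the animals cannot be told apart. A phase was not measured, and the livers are described by their Dbp level.

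Because the split was made on these same libraries, it counts as having used every gene in them. Every difference between Dbp-high and Dbp-low livers below is thus a description with no test. It is the difference of mean log2 CPM (TMM-scaled, prior count 2), positive where Dbp-high livers were higher, with 2 livers against 3. A gene is called higher or lower where the 2 sets do not overlap and the difference is at least 2-fold. Among 14664 genes with enough reads, 120 were called higher (0.818%), 108 lower (0.736%) and 228 in either direction (1.55%). Sets that did not overlap, at any size of difference, were found for 25.7% of genes (12.4% higher and 13.3% lower). These shares are the background for every count below.

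The mammalian clock is a loop of transcription factors. BMAL1 (gene Arntl) with CLOCK or NPAS2 binds the E-box and switches on the Per, Cry and Nr1d genes, the PAR bZIP genes Dbp, Tef and Hlf, and many enzymes. PER and CRY proteins then block that pair. REV-ERB repressors (Nr1d1, Nr1d2) and ROR activators (such as Rora) compete on a site called the RORE, which lies in Arntl, Npas2, Nfil3 and Cry1. PAR bZIP activators and the repressor NFIL3 compete on the D-box. In liver the loop sets daily rhythms of cholesterol, bile acid, fat and sugar metabolism, and feeding also drives many of those genes.

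Windows around the starts of 5 called clock genes are shown because they hold the letters of these sites, which most clock windows do not. They run from 250 bases before to 50 after a RefSeq start on GRCm38.p6, read 5′ to 3′ on the gene's strand, with motif matches in capitals. Those of Arntl and Nfil3 hold a RORE (TAGGTCA, in Nfil3 as its reverse complement), those of Cry1 and Tef an E-box (CACGTG), and that of Per3 holds 2 D-boxes (TTATGTAA).

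Arntl, chr7:113207261-113207560, plus strand: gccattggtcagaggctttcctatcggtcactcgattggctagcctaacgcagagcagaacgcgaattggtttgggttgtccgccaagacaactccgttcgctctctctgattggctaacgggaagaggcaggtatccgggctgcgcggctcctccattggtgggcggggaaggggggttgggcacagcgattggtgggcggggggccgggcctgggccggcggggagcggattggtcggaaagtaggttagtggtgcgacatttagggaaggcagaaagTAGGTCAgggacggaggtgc
Nfil3, chr13:52980990-52981289, minus strand: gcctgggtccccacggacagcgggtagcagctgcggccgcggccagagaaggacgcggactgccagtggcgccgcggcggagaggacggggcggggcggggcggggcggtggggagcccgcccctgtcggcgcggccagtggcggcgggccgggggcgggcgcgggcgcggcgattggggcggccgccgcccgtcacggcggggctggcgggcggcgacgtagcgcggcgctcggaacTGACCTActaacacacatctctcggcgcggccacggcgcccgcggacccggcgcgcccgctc
Cry1, chr10:85185005-85185304, minus strand: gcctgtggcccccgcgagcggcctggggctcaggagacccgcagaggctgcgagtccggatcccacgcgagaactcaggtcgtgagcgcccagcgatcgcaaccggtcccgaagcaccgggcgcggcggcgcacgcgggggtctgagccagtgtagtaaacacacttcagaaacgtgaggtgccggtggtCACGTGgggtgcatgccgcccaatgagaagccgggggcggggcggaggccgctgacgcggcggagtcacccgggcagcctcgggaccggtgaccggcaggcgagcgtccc
Tef, chr15:81802423-81802722, plus strand: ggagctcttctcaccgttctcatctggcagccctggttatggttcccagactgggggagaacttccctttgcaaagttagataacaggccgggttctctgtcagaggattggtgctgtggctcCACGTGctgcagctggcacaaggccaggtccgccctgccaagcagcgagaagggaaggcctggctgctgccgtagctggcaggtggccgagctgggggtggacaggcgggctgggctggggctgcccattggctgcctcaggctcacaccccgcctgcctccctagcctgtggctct
Per3, chr4:151044616-151044915, minus strand: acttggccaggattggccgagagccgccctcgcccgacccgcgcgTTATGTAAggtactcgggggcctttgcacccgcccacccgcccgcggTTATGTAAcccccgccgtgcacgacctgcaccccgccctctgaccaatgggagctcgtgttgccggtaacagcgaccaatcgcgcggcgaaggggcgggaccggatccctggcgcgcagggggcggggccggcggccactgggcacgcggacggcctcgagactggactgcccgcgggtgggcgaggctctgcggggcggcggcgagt

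The search used CACGTG as the E-box, TTATGTAA or TTACGTAA as the D-box and TAGGTCA or TGGGTCA as the RORE, each on both strands. The palindromic CACGTG reads the same on either strand. Of 10222 tested genes with a window, 11.4% held an E-box, 0.968% a D-box and 6.50% a RORE. Among genes called higher, 64 of 120 had a window, and 10.9% of those held an E-box, 3.12% a D-box and 4.69% a RORE. Among genes called lower, 69 of 108 had a window, and 8.70%, 1.45% and 10.1% held these motifs. D-boxes were thus held by 2 windowed genes called higher and 1 called lower, and ROREs by 3 and 7. Of 17 tested clock list members 14 had a window, and an E-box was held by 3 of them, a D-box by 1 and a RORE by 2. The windows of Dbp, Npas2, Nr1d1 and Nr1d2 held none of the 3 motifs, and the other Arntl window in RefSeq holds no RORE. A match is a run of letters, not a shown binding site, and enhancers were not searched.

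The activator arm was lower in the Dbp-high livers. Arntl (ENSMUSG00000055116, chromosome 7, 113207465 to 113314122) stood at 13.2 and 7.21 CPM in the Dbp-high livers, at 37.0, 42.3 and 43.6 CPM in the Dbp-low livers and at 37.7, 43.6 and 40.1 CPM in controls, a log2 difference of -2.06 (SD within the sets 0.369, n = 2 and 3). Npas2, the partner of BMAL1 that can stand in for CLOCK, stood at 1.20 and 0.598 CPM against 6.99, 8.52 and 9.67 CPM, with controls at 4.88, 6.31 and 8.42 CPM (-3.20). In both genes every Dbp-high liver was below every other liver, controls included. Clock itself differed less and was at 74.7 and 70.4 CPM against 93.3, 91.7 and 100 CPM (-0.39). Rora, a ROR activator gene, overlapped between the sets at 118 to 126 and 114 to 124 CPM (0.02).

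The REV-ERB genes, whose products repress through ROREs (the letters stand in the Arntl window above), were at the other extreme. Nr1d1 was counted at 39.6 and 29.7 CPM in the Dbp-high livers, at 6.95, 1.53 and 2.49 CPM in the Dbp-low livers and at 8.69, 3.88 and 6.07 CPM in controls (3.49, SD within the sets 0.907). Nr1d2 was counted at 101 and 94.3 CPM against 35.5, 17.4 and 23.2 CPM, with controls at 28.1 to 38.6 CPM (2.00). The Dbp-high livers were highest of all 8 for both. Nr1d1 shares 1075 bases with Thra on the opposite strand, and the strand used in counting is not given in the sources used here, but Thra itself differed by only -0.06.

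The period and cryptochrome genes, whose proteins repress BMAL1, did not all lie on 1 side. Per3 stood at 38.0 and 46.0 CPM against 2.8, 3.63 and 4.22 CPM, with controls at 4.56, 2.36 and 2.64 CPM (3.56, SD within the sets 0.265). Per2 stood at 12.2 and 19.6 CPM against 5.88, 6.86 and 4.69 CPM (1.42). Per1 overlapped, at 3.18 and 5.61 CPM against 1.82, 5.41 and 4.63 CPM (0.24), so the period genes did not behave as 1 group. Per3 lies inside Camta1 on the same strand, and Camta1 differed by 0.55, at 2.57 to 4.32 CPM in knockouts.

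Cry1, whose window holds the E-box printed above, was lower, at 8.08 and 8.14 CPM against 21.8, 33.7 and 24.7 CPM, with controls at 18.4 to 21.6 CPM (-1.69). Its paralog Cry2 was higher, at 31.5 and 28.9 CPM against 18.8, 18.8 and 22.0 CPM (0.61). Nfil3, the D-box repressor, was lower, at 16.6 and 13.8 CPM against 49.1, 56.3 and 65.2 CPM, with controls at 39.1 to 46.8 CPM (-1.90). Bhlhe40, which represses E-boxes, was higher by 0.74. For each of these 4 genes the Dbp-high livers lay outside the range of all other 6 libraries.

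The PAR bZIP genes, the D-box activators, were higher throughout. After TMM scaling Dbp itself was at 69.3 and 54.5 CPM against 2.41, 1.82 and 1.76 CPM (4.92), which is the rule and not a finding. Tef was at 121 and 138 CPM against 30.1, 41.3 and 38.7 CPM, with controls at 35.4 to 43.6 CPM (1.83, SD within the sets 0.212). Hlf was at 31.3 and 35.1 CPM against 22.6, 21.5 and 24.4 CPM (0.54). Dbp shares 689 bases with Sphk2 on the other strand, and Sphk2 differed by 0.11.

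Over the 3 clock lists without Dbp, which made the split, 16 of 18 members had enough reads, 14 did not overlap between the sets, and all 14 placed the Dbp-high livers outside the control range as well. No called clock gene moved by over 1.5 times when a single knockout was left out. Of the 14, 5 were called higher (Per3, Nr1d1, Nr1d2, Tef and Per2) and 5 lower (among them Npas2, Arntl, Nfil3 and Cry1). Ciart and Bhlhe41, 2 further repressors, fell under the filter on low counts, with 45 and 47 reads in the Dbp-high livers against 4 to 7 in the Dbp-low livers for Ciart, and 32 and 12 reads against 2 to 6 for Bhlhe41. That filter needs 3 well-covered libraries, so a gene present only in the 2 Dbp-high livers could be left out by it.

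**Figure D1:**
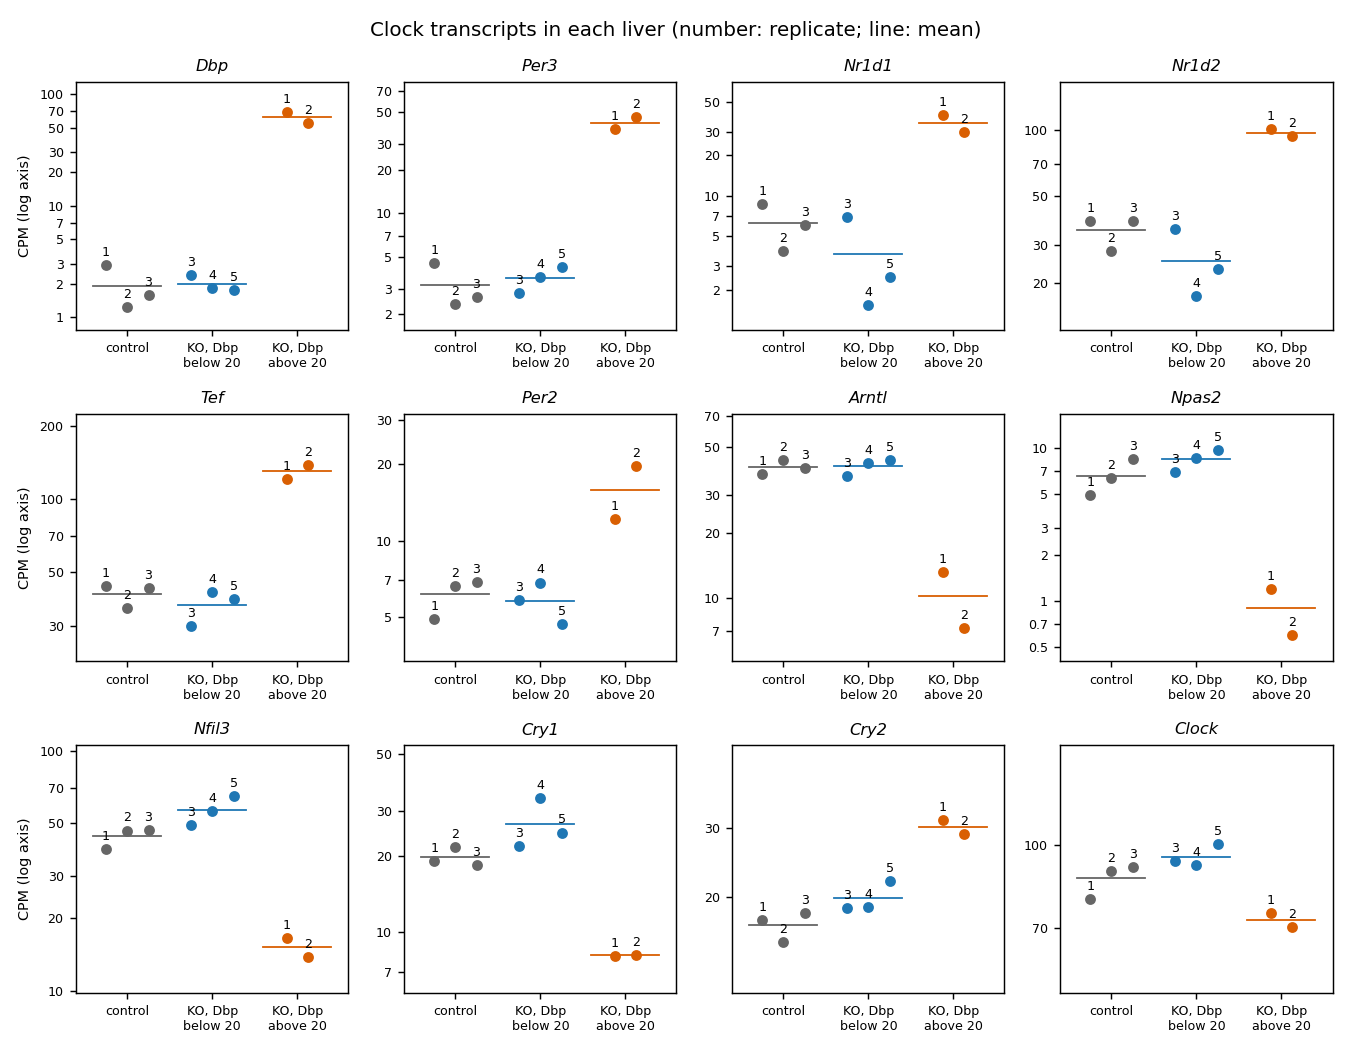
Levels of 12 clock genes in each of the 8 livers, in CPM on a log axis, for controls and for knockouts below (Dbp-low) and above (Dbp-high) 20 CPM of Dbp, with a point and replicate number per liver and a line at the mean. The Dbp-low livers sit with the controls for Arntl (37.0 to 43.6 CPM) and Per3 (2.8 to 4.22 CPM), and the Dbp-high livers stand apart from both.

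Over all tested genes, clock genes included, 1.55% were called, and the sets did not overlap for 25.7%. The median difference was -0.00804. TMM scaling keeps that median near 0, so it does not show how much genes differed. Among 8479 genes with a mean log2 CPM of at least 3 in the knockouts, 23 were called higher and 28 lower (0.601% together), against 228 in the whole table, so most called genes lay below that level. Of the 120 genes called higher, 88 were above all 3 controls in both Dbp-high livers, and 77 of the 108 called lower were below all controls. In the knockout against control test 0 of the 228 passed by edgeR, where 21 had an unadjusted p under 0.05 (11 higher and 10 lower), 0 by limma-voom and 6 by DESeq2. Over all 14664 tested genes 16 passed by edgeR, where 1518 had an unadjusted p under 0.05, 18 by limma-voom and 244 by DESeq2. The 228 were picked for differing within the knockouts, which raises the spread in this test. Their counts thus do not show whether they differ by genotype.

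**Figure D2:**
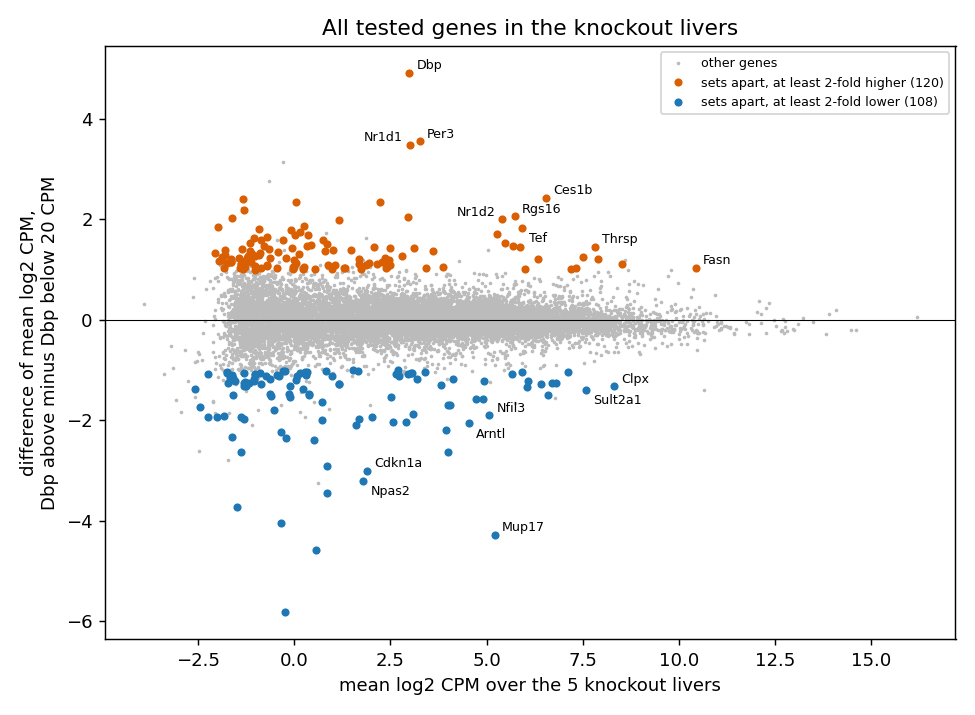
Difference between Dbp-high and Dbp-low livers for each of the 14664 tested genes (y axis, log2) against its mean level in the 5 knockouts (x axis, log2 CPM), with the 120 genes called higher and the 108 called lower in colour and 16 of the named genes labelled. Clock genes run from -3.20 for Npas2 to 3.56 for Per3, and Dbp, which made the split, lies at 4.92.

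The list of known rhythmic liver outputs lay on both sides. Of its 25 genes, 5 were higher and 8 lower without overlap, and 4 and 6 were called, with a median of 0.02 that ran from -0.32 to 0.19 without single knockouts. Usp2, a deubiquitinase with strong liver rhythm, was at 2.88 and 3.79 CPM against 0.671, 2.42 and 0.851 CPM (1.51), though it overlaps a predicted gene over its length. Wee1, the mitotic kinase that the clock controls in liver, was at 4.62 and 5.08 CPM against 1.78, 1.90 and 1.80 CPM, with controls at 1.13 to 1.61 CPM (1.38). An antisense gene on the opposite strand covers the whole span of Wee1. The G-protein regulator Rgs16 was at 105 and 149 CPM against 80.7, 9.41 and 34.7 CPM (2.06, and 1.24 without replicate 4). Knockout replicate 3 came close to the Dbp-high livers for Rgs16, which it did not for Wee1.

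On the lower side, Cdkn1a, the p21 inhibitor of the cell cycle and a target repressed by REV-ERB, was at 0.685 and 1.43 CPM against 13.6, 6.86 and 6.36 CPM, with controls at 3.65, 6.60 and 9.96 CPM (-3.01). Lonrf3, a RING-finger gene whose window holds an E-box, was at 2.26 and 2.69 CPM against 10.5, 9.97 and 10.5 CPM, with controls at 7.60 to 10.2 CPM (-2.04). Ppard, a lipid-sensing nuclear receptor, was at 1.71 and 1.79 CPM against 4.93, 7.31 and 8.76 CPM (-1.92). All 3 genes lay below every control in both Dbp-high livers. Tubb2a, a beta-tubulin, was at 52.5 and 48.4 CPM against 153, 132 and 89.1 CPM (-1.27).

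Outside the lists, among genes of at least moderate level, the mitochondrial protease subunit gene Clpx was at 214 and 158 CPM against 503, 440 and 434 CPM, with controls at 406 to 537 CPM (-1.32). Chka, choline kinase, was at 58.8 and 45.2 CPM against 125, 173 and 143 CPM, with controls at 93.7 to 133 CPM (-1.50). The ubiquitin ligase gene Rnf125 was at 75.7 and 49.8 CPM against 148, 126 and 172 CPM (-1.26). In these 3 genes the Dbp-low livers overlapped the controls and the Dbp-high livers lay below both.

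Among the genes higher outside the lists, Rdh9, a retinol dehydrogenase, was at 113 and 100 CPM against 43.3, 37.6 and 35.8 CPM, with controls at 37.5 to 63.5 CPM (1.45). It overlaps Rdh16f1. Fabp5, a fatty acid carrier, was at 57.5 and 106 CPM against 14.3, 23.3 and 40.0 CPM, and its controls ranged from 8.17 to 36.4 CPM (1.72). Tnfrsf19 was at 20.2 and 22.6 CPM against 15.9, 4.48 and 7.78 CPM (1.37), with knockout replicate 3 near the Dbp-high pair. Arrdc3, an arrestin-domain gene, was at 571 and 597 CPM against 404, 283 and 173 CPM, with controls from 296 to 549 CPM (1.11). For these 4 genes both Dbp-high livers were above all other 6 libraries.

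In several of the largest differences the control livers did not side with the Dbp-low livers. Ces1b, a carboxylesterase, was at 259 and 256 CPM against 31.0, 57.4 and 60.7 CPM (2.44), but control livers spanned 68.7 to 372 CPM. Cyp2b13 was at 93.5 and 74.0 CPM against 32.7, 25.7 and 28.8 CPM (1.52), and controls were higher still, at 137 to 200 CPM. Mcm10, a replication factor, was at 20.7 and 24.3 CPM against 11.9, 11.3 and 9.39 CPM (1.05), with controls at 21.0 to 22.8 CPM. For Mcm10 it was thus the Dbp-low livers that stood apart from controls.

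The same holds in the lower direction. Mup17, of the urinary protein cluster on chromosome 4, was at 4.69 and 8.11 CPM against 28.1, 233 and 270 CPM (-4.28), while controls spanned 1.66 to 165 CPM. Loxl4, a lysyl oxidase, was at 6.57 and 4.19 CPM against 31.0, 32.9 and 35.1 CPM (-2.64), with controls from 1.66 to 31.3 CPM. For both genes a control liver stood below the Dbp-high livers. Ugt2b37 (-2.19), Slc34a2 (-1.86) and Sult2a1 (-1.39) put the Dbp-low livers above all 3 controls, as with Sult2a1 at 414, 218 and 244 CPM against 4.43 to 33.1 CPM in controls and 128 and 89.3 CPM in Dbp-high livers. Mup-ps16 (-1.69) was lower too, at 10.5 and 5.81 CPM in Dbp-high livers, with controls at 4.58 to 15.1 CPM. Tor3a (-1.30) differed from these genes, at 7.46 and 8.87 CPM against 41.8, 14.9 and 13.2 CPM. Its controls were at 11.5 to 14.1 CPM, so both Dbp-high livers lay below all of them. The Slc34a2 difference was -1.15 without replicate 1 and that of Tor3a -0.78 without replicate 3. Reads of Mup17, Mup-ps16, Ces1b, Cyp2b13, Ugt2b37 and Sult2a1 can be shared with close paralogs, so their values are uncertain.

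Cholesterol synthesis genes were higher in the Dbp-high livers, most in replicate 2. All 21 members had positive differences, and the median was 0.69. The sets did not overlap for 12 (57.1%, against a background of 12.4% higher), 2 were called higher, and none was lower. Nsdhl, a late enzyme of the pathway, was at 65.2 and 144 CPM against 50.3, 46.1 and 47.1 CPM, with controls at 56.9 to 122 CPM (1.02). Fdps, which makes farnesyl diphosphate, was at 168 and 326 CPM against 114, 120 and 151 CPM (0.88). Replicate 2 was the highest of the 5 knockouts for 20 of the 21 genes and above all controls for 18. Replicate 1 was above all controls for 3 and below them for 6, so the Dbp-high livers did not share 1 level of this pathway. The list median was 0.29 without replicate 2 and 1.10 without replicate 1, and in the same order the difference was 0.45 and 1.59 for Nsdhl and 0.40 and 1.36 for Fdps. The Dbp-low livers were below all controls for 13 (replicate 3), 15 (replicate 4) and 14 (replicate 5) of the 21.

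Lipogenic genes were higher too. Of 18 members, 16 differences were positive, and the median was 0.61. Without overlap 8 were higher (44.4%, against a background of 12.4%), and 3 were called. Thrsp (Spot14), a regulator of fat synthesis, was at 303 and 551 CPM against 126, 137 and 192 CPM, with controls at 211, 270 and 112 CPM (1.45, SD within the sets 0.441). Elovl6, the elongase of palmitate, was at 242 and 386 CPM against 183, 77.6 and 151 CPM (1.25). Fasn, fatty acid synthase, was at 1642 and 2761 CPM against 1180, 781 and 1198 CPM, with controls at 1001 to 1320 CPM (1.04). Replicates 1 and 2 were each above all controls for 12 of the 18, and replicate 5, a Dbp-low liver, was above them for 10. The median was 0.41 without replicate 4, and the Fasn difference was 0.67 without replicate 2.

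Genes for storing triglyceride lay on both sides. Of 18 tested, 4 were higher and 6 lower without overlap (22.2% and 33.3%, against backgrounds of 12.4% and 13.3%), and 1 and 2 were called. The median was -0.18, or -0.52 without replicate 5 and -0.0026 without replicate 3. A pair of enzymes on the path that makes triglyceride was higher, Lpin1, the phosphatidate phosphatase, at 94.5 and 192 CPM against 54.9, 48.1 and 73.8 CPM (1.21), and Gpam, the first acyltransferase, at 428 and 448 CPM against 309, 229 and 322 CPM (0.63). On the lower side were G0s2, an inhibitor of lipolysis, at 61.6 and 72.1 CPM against 319, 124 and 102 CPM (-1.26), and the droplet protein gene Plin4, at 3.46 and 4.55 CPM against 8.76, 7.39 and 9.26 CPM (-1.08). Plin4 lay below all controls (4.80 to 5.42 CPM) in the Dbp-high livers and above them in the Dbp-low livers. Cd36, the fatty acid uptake receptor, was at 89.0 and 65.8 CPM against 317, 94.2 and 95.2 CPM (-0.89). Without replicate 3 the differences of Cd36 and G0s2 were -0.31 and -0.76, and without replicate 2 that of Lpin1 was 0.70.

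**Figure D3:**
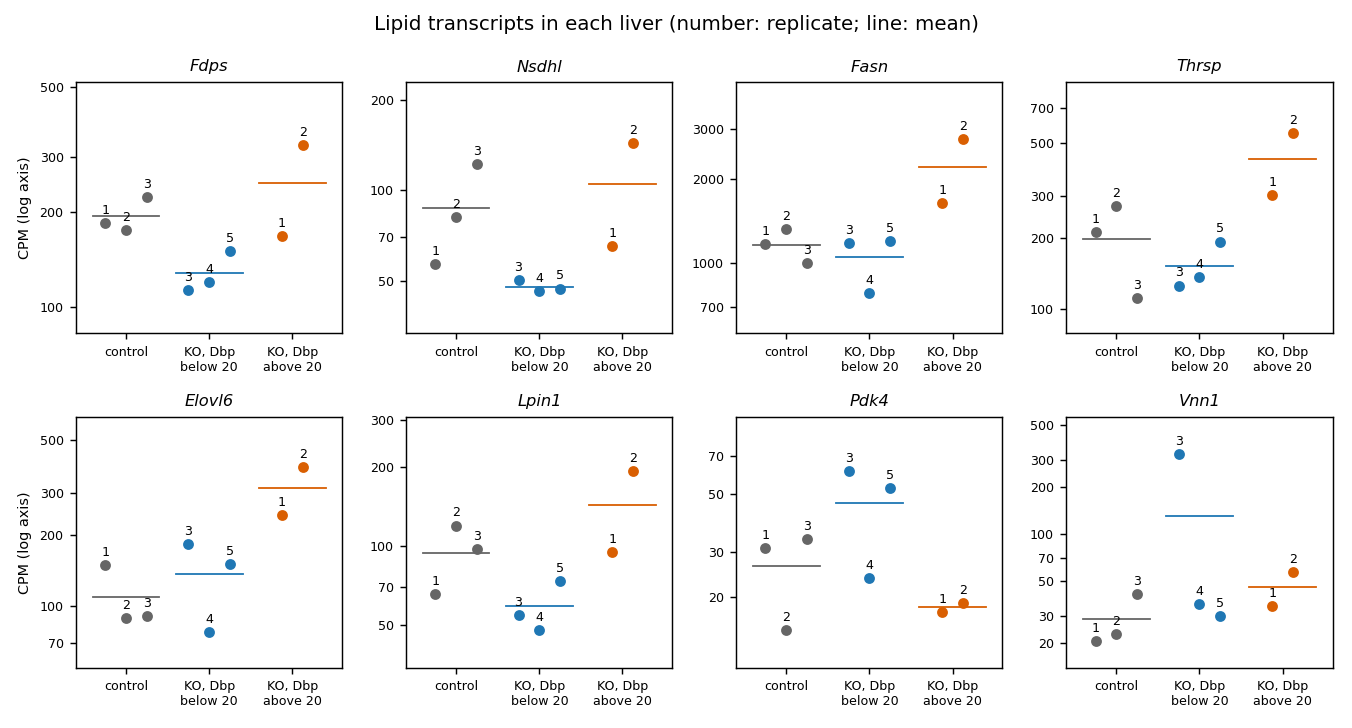
Levels of 8 lipid genes in each liver, in CPM on a log axis, for controls and for knockouts below and above 20 CPM of Dbp, with a point and replicate number per liver and a line at the mean. Knockout replicate 2 is highest for Fdps (326 CPM) and Fasn (2761 CPM), and knockout replicate 3 stands alone for Vnn1 (328 CPM).

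PPARα targets and fatty acid oxidation genes followed replicate 3 rather than the Dbp split. Of 23 members, 1 was higher and 2 lower without overlap (4.35% and 8.7%, against backgrounds of 12.4% and 13.3%), and 1 was called lower. The median was -0.16, which became 0.19 without replicate 3. Pdk4, which spares glucose in fasting, was at 17.5 and 19.0 CPM against 61.7, 23.6 and 53.0 CPM, with controls at 14.9 to 33.4 CPM (-1.22). Angptl4, an inhibitor of lipoprotein lipase, was at 46.7 and 67.4 CPM against 130, 80.7 and 124 CPM (-0.96). Knockout replicate 3 was the highest of the 5 knockouts for 22 of the 23 genes and above all controls for 22. Its levels were 2040 CPM for Cyp4a14 and 328 CPM for Vnn1. The other knockouts held 336 to 533 CPM of Cyp4a14 and 29.7 to 56.7 CPM of Vnn1 (genes picked after their values were seen).

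Carbohydrate genes lay on both sides. Of 19 members, 4 were higher and 2 lower without overlap (21.1% and 10.5%, against backgrounds of 12.4% and 13.3%), 1 was called lower, and the median was 0.06. Pklr, liver pyruvate kinase, was at 270 and 374 CPM against 149, 153 and 228 CPM (0.88), and Pfkfb3, which makes an activator of glycolysis, at 6.50 and 13.3 CPM against 5.33, 5.13 and 4.63 CPM (0.88, or 0.37 without replicate 2 and 1.40 without replicate 1). Ppp1r3c, which targets a phosphatase to glycogen, was at 114 and 71.1 CPM against 181, 209 and 167 CPM, with controls at 135 to 195 CPM (-1.04). Fdps, G0s2 and Pklr overlap other annotated genes, whose reads may be counted with them. In bile acid synthesis 3 of 13 genes were higher and 1 lower without overlap, in amino acid breakdown 1 and 2 of 20, and in drug metabolism 1 and 3 of 20, with none called in the 3 lists.

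Stress programs were described by 6 lists. In 5 of them more members were lower than higher in the Dbp-high livers without overlap. The share higher without overlap was below the background of 12.4% in all 6 lists, and the share lower was above the background of 13.3% in 5, at 16.7% to 27.8% of 12 to 18 genes. In lists this short a few genes set these shares, so no direction of the stress programs is read from them. The ER list was the exception. In the ER unfolded protein response 0 of 21 genes separated the sets (median 0.05, range -0.13 to 0.38), against the background of 25.7%. In the integrated stress response 1 of 18 was higher and 5 lower without overlap, none called, and Nupr1 at 1.51 and 1.46 CPM against 1.07, 0.605 and 1.20 CPM was the higher one (0.65, or 0.38 without replicate 4). Of 13 NRF2 targets 3 were lower, among them Osgin1 (-0.86) and Gclc, the glutathione-making enzyme, at 258 and 175 CPM against 377, 319 and 293 CPM, with controls at 324 to 397 CPM (-0.62, or -0.34 without replicate 2).

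Heat shock genes had 3 of 16 lower and 1 called. Hspb1, which encodes a small heat shock protein, was at 1.06 and 1.36 CPM against 4.22, 7.51 and 4.76 CPM, with controls at 2.10 to 3.55 CPM (-2.09). The Dbp-high livers lay below the controls for Hspb1 and the Dbp-low livers above them. Hspa1a and Hspa1b, the inducible HSP70 genes, overlapped between the sets, at no more than 1.99 CPM. Among 16 glucocorticoid-responsive genes 3 were lower without overlap and Cdkn1a alone was called (median -0.36, or -0.23 without replicate 4). Tsc22d3, the leucine zipper GILZ, was at 58.4 and 71.9 CPM against 92.6, 112 and 102 CPM, with controls at 111 to 156 CPM (-0.65). Of 12 immediate early genes 1 was higher and 2 lower, with Fos at 0.685 and 0.897 CPM against 2.01, 5.37 and 1.51 CPM (-1.63).

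Acute phase genes had 1 of 16 higher and 6 lower without overlap and none called (median -0.17). The shares were 6.25% and 37.5%, against backgrounds of 12.4% and 13.3%. The higher acute phase gene was Apcs, serum amyloid P, at 330 and 371 CPM against 321, 193 and 137 CPM, with controls from 264 to 643 CPM (0.78, or 0.49 without replicate 5). Of 18 cell cycle genes 5 were higher and 1 lower without overlap (27.8% and 5.56%, against the same backgrounds). Among those higher were Ccne1 at 0.377 and 0.930 CPM against 0.237 to 0.323 CPM (1.00, or 0.41 without replicate 2 and 1.59 without replicate 1) and Mcm6 at 6.71 and 7.14 CPM against 2.45 to 5.07 CPM (0.79, or 0.45 without replicate 3). Wee1 and Cdkn1a, which also stand in that list, were the most extreme. Of 25 cytosolic ribosomal protein genes 1 was higher and 1 lower, and of 8 tested mitochondrially encoded mRNAs none separated the sets.

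**Figure D4:**
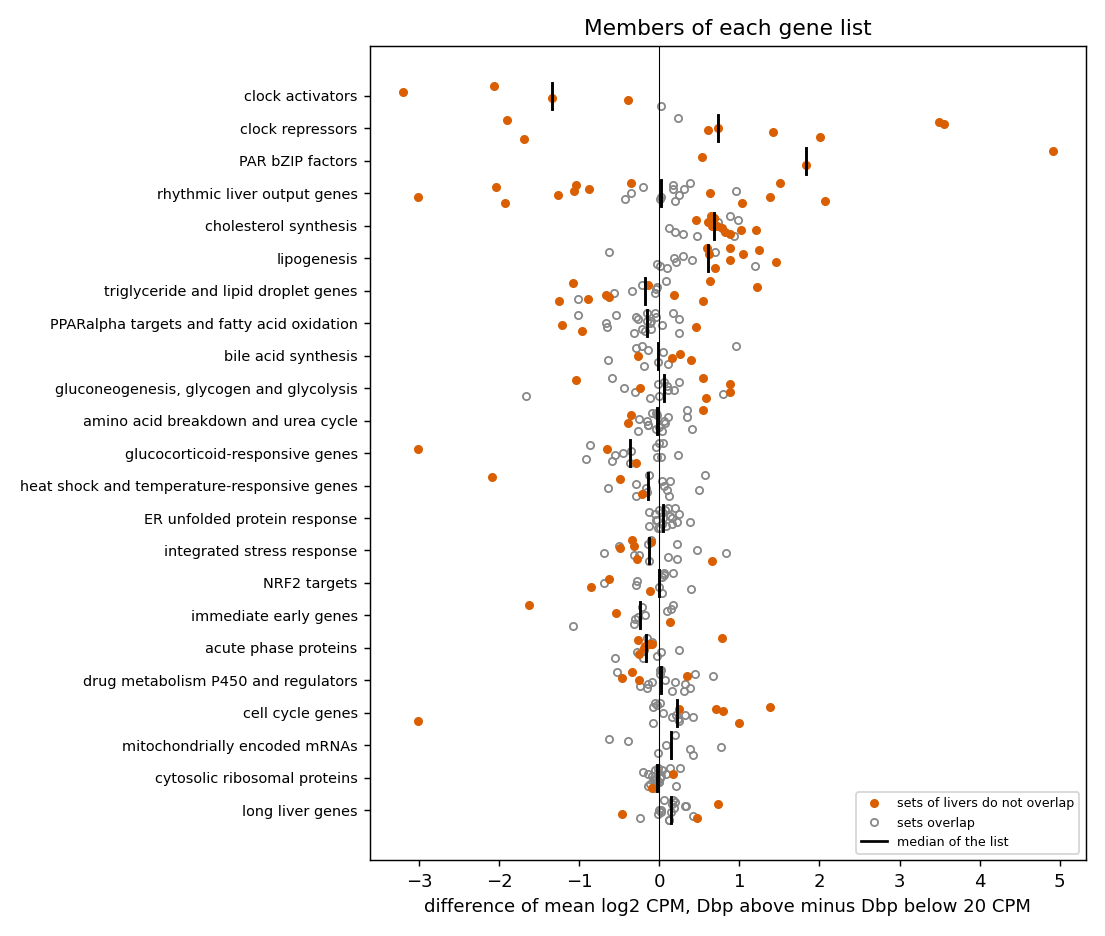
Difference between Dbp-high and Dbp-low livers (log2) for every tested member of each gene list, 1 point per gene, filled where the sets of livers do not overlap, with a bar at the list median. Cholesterol synthesis (median 0.69) and lipogenesis (0.61) lie to the positive side with 0 and 2 members below 0, and the ER unfolded protein response clusters around 0.05.

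No marker gene was called higher or lower in any of the 11 lists of liver cell types and zones. The background was 1.55% of tested genes, so lists this short would hold few calls or none. All 8 Kupffer cell, all 6 tested erythroid and both tested pancreas markers had negative differences (medians -0.26, -0.40 and -0.21). All 3 tested neutrophil markers had positive ones (0.58). None of these markers separated the sets, and the other lists held members of both signs. The 8 hepatocyte markers summed to 95800 to 104000 CPM in the Dbp-high livers, 92100 to 102000 CPM in the Dbp-low livers and 94300 to 99100 CPM in controls, and all 8 were counted in every library. Kupffer cell markers summed to 478 to 557, 463 to 841 and 420 to 753 CPM in the same order, sinusoidal endothelial markers to 490 to 497, 444 to 586 and 456 to 553 CPM, and stellate cell markers to 527 to 560, 538 to 571 and 537 to 568 CPM. Cholangiocyte, neutrophil and lymphocyte markers summed to at most 59.3 CPM in any liver, and erythroid markers summed to 97.5 to 399 CPM and pancreas markers to 8.22 to 13.9 CPM in the knockouts. The neutrophil genes Ly6g, Mpo and Elane were not analysed here, nor were 6 of the 8 pancreas genes. Zonal markers gave different answers by sum and by gene. Periportal markers summed to 3570 to 3930 CPM in Dbp-high against 4320 to 4720 CPM in Dbp-low livers, with 1 of 8 higher and 1 lower, with controls at 3730 to 4640 CPM. Pericentral markers summed to 6890 to 7770 against 6370 to 6880 CPM, which nearly met, with controls at 7340 to 8210 CPM. The most abundant genes weigh most in such sums. With every gene weighted alike, as the mean log2 deviation from the knockout mean, periportal markers overlapped, at -0.0929 and -0.108 in the Dbp-high against -0.147, 0.139 and 0.208 in the Dbp-low livers. Pericentral markers on that measure again nearly met, at 0.230 and 0.0602 against -0.344, -0.00498 and 0.0582. The Wnt target receptor gene Lgr5, a pericentral marker, was at 9.41 and 9.67 CPM against 4.78, 5.61 and 7.53 CPM, with controls at 7.13 to 10.6 CPM (0.70). The part of zonation in the metabolic differences was not tested, and in bulk tissue fewer cells of a type and less RNA per cell cannot be told apart.

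The deleted carrier gene Slc25a28 was nearly absent from both sets. It was at 0.753 and 0.731 CPM in the Dbp-high livers, 0.592, 0.888 and 0.662 CPM in the Dbp-low livers and 18.1, 16.6 and 16.6 CPM in controls (0.07 between the sets, knockout against control edgeR adjusted p = 1.92e-07). Slc25a37 was at 10.6 and 8.74 CPM against 5.76, 8.15 and 8.35 CPM, with controls at 17.4, 12.9 and 23.0 CPM (0.39 between the sets). Both Dbp-high livers lay above the Dbp-low livers for Slc25a37, by a small margin (0.22 without replicate 3, 0.25 without replicate 1), and it did not pass the knockout against control test (edgeR adjusted p = 0.104).

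On average over the sets, long genes were slightly higher in the Dbp-high livers. Across genes, the Spearman correlation of the difference with genomic span was 0.170 (14664 genes, which share libraries and are not replicates). The median difference was -0.0330 in the tenth of genes with the shortest spans (median 1.09 kb) and 0.107 in the tenth with the longest (median 177 kb). Of 19 long liver genes (median 0.15) 2 were higher and 1 lower without overlap. These shares, 10.5% and 5.26%, were below the backgrounds of 12.4% and 13.3%. Genes called higher or lower were not long, and their median spans were 15.9 and 14.7 kb, against 20.5 kb for all tested genes.

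The length trend did not follow the Dbp split liver by liver. Against the mean of the 5 knockouts, span correlated with a library's deviation at 0.111 and 0.118 in the Dbp-high livers and at -0.104, -0.203 and 0.113 in Dbp-low replicates 3, 4 and 5. Replicate 5, with the lowest Dbp of the 5, thus showed the same trend as the Dbp-high livers. Differences of each Dbp-high liver from replicate 5 correlated with span at 0.00826 and 0.00797, against 0.120 and 0.148 from replicate 3 and 0.189 and 0.182 from replicate 4. Control livers, each against the control mean, gave -0.144, 0.0464 and 0.0750. The trend was then removed by a smooth curve on span, fitted to each knockout library's deviation from the mean of the 5. After that, 113 of the 120 higher and 102 of the 108 lower calls stayed.

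**Figure D5:**
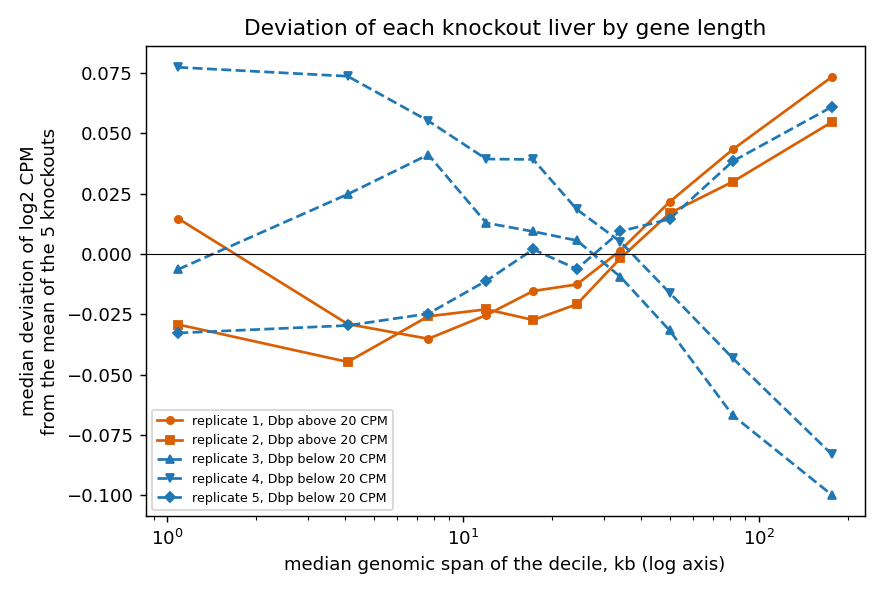
Median deviation of log2 CPM of each knockout liver from the mean of the 5 (y axis), in 10 equal groups of genes ordered by genomic span (x axis, median span in kb on a log axis). In the longest genes replicates 1, 2 and 5 lie at 0.0734, 0.0547 and 0.0610 and replicates 3 and 4 at -0.0998 and -0.0830.

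Other axes of the libraries also cut across the Dbp split. In a principal component analysis of the 5 knockouts, the first component (38.1% of the variance) put replicate 3 at 43.6 and replicate 5, at -17.1, between Dbp-high replicates 1 and 2 at -22.5 and -12.5. The second component (31.6%) put replicates 1, 2 and 3, whose sample titles begin with 85, at 9.61 to 26.1 and replicates 4 and 5, which begin with 82 as all controls do, at -35.6 and -14.0. The meaning of the title numbers is not given. Within the titles beginning with 85, replicates 1 and 2 against replicate 3 alone, 470 genes were 2-fold higher and 321 lower, a comparison that holds 1 Dbp-low liver. Titles beginning with 82 hold no Dbp-high liver, so the same comparison could not be made within them. Library totals were 24.6 to 31.9 M reads (M, mega) in knockouts and 35.5 to 43.1 M in controls, and mitochondrially encoded genes took 3.92% and 2.84% of reads in the Dbp-high against 2.52% to 3.51% in the Dbp-low livers.

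The labels allow 1 test, knockout against control, and it was run with and without the Dbp-high livers. Those livers were chosen from these same libraries, so the run without them is a description. With all 8 libraries, 16 of 14664 genes passed edgeR's quasi-likelihood test with Benjamini-Hochberg adjustment at 0.05 (0.109%), 7 of them higher (0.0477%) and 9 lower (0.0614%). No clock gene passed. The log2 fold change was 3.75 for Dbp, 2.57 for Per3 and -0.50 for Arntl (edgeR adjusted p = 0.413, 0.436 and 0.752). Without both Dbp-high livers these became 0.06, 0.17 and 0.03 (edgeR adjusted p = 0.980, 0.939 and 0.970). For Dbp that change is fixed by how the livers were chosen, and for Per3 and Arntl it is a description only. Of the 71 genes named by rule, Slc25a28 alone passed.

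Leaving out the Dbp-high livers also changed which genes passed. The count went to 11, of which 8 were among the 16. Leaving out single libraries gave 8 to 30, so such a change is not particular to the Dbp-high livers. Slc25a28, Cebpe, Enpp6, Meiob, Hist4h4 and Cux2 were kept, with Gm9825 and ENSMUSG00000048149, while 8 others, among them Cyp3a44, Fam84b, Alad, Nipal1, Psmb5, Mir686 and Cyp3a41b, no longer passed with 3 knockouts (edgeR adjusted p = 0.0671 to 0.210). The genes gained were Cyp2b13, Aldoc and Sik1. For each of them the Dbp-high and Dbp-low livers did not overlap, and the livers left out were chosen from these same libraries. Their adjusted p-values without those livers are thus descriptions. Cyp2b13, a P450 known for higher levels in female mouse liver, differed by -2.48 on the log2 scale without the Dbp-high livers (edgeR adjusted p = 0.00611) and by -1.68 with them (edgeR adjusted p = 0.191). Aldoc, an aldolase, was at 9.34 and 13.4 CPM in Dbp-high livers, 4.90, 6.42 and 5.89 CPM in Dbp-low livers and 14.0 to 17.0 CPM in controls, and passed without the former (edgeR adjusted p = 0.0260). Sik1, a kinase gene, was at 8.28 and 13.6 CPM, 17.4, 20.8 and 16.3 CPM and 7.43 to 8.97 CPM in the same order (edgeR adjusted p = 0.0402). For Aldoc and Sik1 the Dbp-high livers lay nearer to the controls than the Dbp-low livers did.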

How the data were processed

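Liver RNA was sequenced in 3 control and 5 knockout samples, from total RNA depleted of ribosomal RNA and made into stranded libraries, per the labels' protocols. Per the submitters' processing notes, Novoalign 2.8, the build mm10 and DESeq2 were used. Which program counted the reads, and with what strand setting, is not given in the sources used here. A table from the authors was deposited with raw read counts per gene, which entered every calculation. Per the file headers it also holds the authors' regularised log2 values and log2 ratio, FPKM values and an adjusted-p score, which were not used.

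The table lists 15864 genes, and filterByExpr of edgeR 4.0.16 (min.count 10, min.total.count 15) kept 14664. Its rule needs 3 covered libraries, so genes counted in the 2 Dbp-high livers alone can drop out. Libraries held 24.6 to 43.1 M counts, and 1 count stood for 0.0227 to 0.0404 CPM. CPM were scaled by TMM, except the Dbp CPM of the rule, which used raw totals. For log2 CPM a prior count of 2 was added. The Dbp-high and Dbp-low livers were compared without a test, as differences of mean log2 CPM. Knockout and control were compared with edgeR's quasi-likelihood test in R 4.3.3, two-sided, group as the only term, Benjamini-Hochberg adjusted over all tested genes. Every edgeR p comes from that test. DESeq2 1.42.0 and limma-voom (limma 3.58.1) were alternatives. The edgeR step was tested on simulated counts. Figures used matplotlib 3.10.9. Gene spans come from the coordinates in the authors' table, overlaps from GENCODE M21 and promoter windows from RefSeq on GRCm38.p6.

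The livers, the 35 gene lists and the rules were chosen with earlier results of these data known. Named genes are all tested clock genes and both mitoferrins, up to 3 genes per direction and list whose sets do not overlap and differ at least 1.5-fold, and up to 12 per direction from the table with a mean log2 CPM of at least 3, other than clock genes, predicted genes, Y-linked genes and Xist. A few genes that meet this rule are not reported here. Other genes were named after their values were seen. The labels do not say that the samples are separate animals, so the p-values may cover technical spread only. Chi-square statistics between replicates were 28.1 to 77.3 per gene, above sampling noise, so no library was treated as a repeat.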

Additional observations from a re-analysis of the deposited data

Results flagged for a closer look

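Among the 71 named genes, looked at over the 5 knockout livers, 1 had a liver far from the others. Cd36 stood at 317 CPM in knockout replicate 3, against 89.0, 65.8, 94.2 and 95.2 CPM in replicates 1, 2, 4 and 5. On the log2 CPM scale the gap to the nearest liver was 0.766 of the whole range, above the critical value of 0.71 for 5 samples. Chance flags about 1 in 20 groups of 5 unselected values. Many of the 71 genes were picked because the sets do not overlap, so that rate does not apply to them. Whether 1 flag is more or less than chance would give was not tested. Replicate 3 is a Dbp-low liver, and it was also the highest knockout for 22 of 23 PPARα targets and oxidation genes.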

How the results depend on the processing

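Between Dbp-high and Dbp-low livers, the counts of genes higher and lower (120 and 108) were within 1.5 times under DESeq2 size factors, no filter, a prior count of 0.5 and removal of the length trend. They were 404 and 337 at a 1.5-fold threshold, 470 and 321 with titles beginning with 85 alone, and 23 and 28 among genes with a mean log2 CPM of at least 3, an alternative added after seeing the data. Leaving out single knockouts gave 127 to 234 higher and 124 to 235 lower, since fewer livers separate more easily. The length correlation of 0.170 was 0.291 among genes with a mean log2 CPM of at least 3 and 0.117 to 0.209 without single knockouts. Of named gene differences 654 stayed within the spread and 56 moved, with no change of sign among called genes. Of list medians 297 stayed and 53 moved, and some changed sign when 1 knockout was left out. Among them were rhythmic liver outputs (0.0193 to -0.315 without replicate 2) and PPARα targets (-0.159 to 0.185 without replicate 3). For knockout against control, DESeq2 called 244 genes against 16 by edgeR, the cause of which was not tested, and leaving out single libraries gave 8 to 30, with 8 without control replicate 3 or knockout replicate 1, 9 without knockout replicate 2 or 5 and 30 without knockout replicate 3. Replicate numbers did not pair the samples (correlations of deviations 0.0806, 0.0198 and -0.0604), and with the replicate block 12 genes passed, 5 of them among the 16. The limits are 2 livers against 3, a split read from the same libraries, no hour of collection, and about 0.03 CPM per read for rare transcripts.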

Other observations

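A few predicted genes with large differences between Dbp-high and Dbp-low livers did not follow the split in every liver. Gm10263, on the plus strand of chromosome 13 (73317844 to 73318143), stood at 0 and 0.0332 CPM in knockout replicates 1 and 2 and at 22.2, 22.6 and 0.0945 CPM in replicates 3, 4 and 5, with controls at 22.1, 40.4 and 17.4 CPM. Gm10260, also on chromosome 13 (97760130 to 97760588, minus strand), stood at 0.103, 0.233 and 0.252 CPM in replicates 1, 2 and 5, against 23.0 and 20.1 CPM in replicates 3 and 4 and 17.2 to 46.5 CPM in controls. Both genes were nearly absent from the same 3 knockouts, 1 of them Dbp-low.

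Neighbouring genes on chromosome 17 gave the same picture. C920025E04Rik (36109234 to 36111658), Gm7030 (36109719 to 36129425) and Gm10499 (36141758 to 36145923), all on the minus strand, stood at no more than 0.662, 0.0945 and 0.189 CPM in replicates 1, 2 and 5. In replicates 3 and 4 they stood at 11.3 and 12.8, 1.93 and 3.19, and 7.94 and 7.14 CPM, and controls held at least 9.33, 2.01 and 4.65 CPM. C920025E04Rik and Gm7030 overlap, so their reads are not independent. Replicates 1, 2 and 5 are also the livers that shared the positive length trend, and the pair with the smallest chi-square statistic between replicates was 1 and 5 (28.1 per gene), against 48.2 for the Dbp-high pair 1 and 2. Whether these facts are linked was not tested. The genes lie outside the naming rule and were picked after their values were seen.

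Other urinary protein genes beside Mup17 varied as widely among controls as among knockouts. Mup18 stood at 0.342 and 0.664 CPM in Dbp-high livers, 1.46, 7.71 and 5.67 CPM in Dbp-low livers and 0.658 to 14.6 CPM in controls. Mup16 stood at 3.08 and 3.19 CPM, 3.55, 29.3 and 20.8 CPM and 1.36 to 31.7 CPM. The lowest control for both was replicate 1, as for Mup17 at 1.66 CPM. Srebf1, the master factor of lipogenesis, was higher without overlap at 455 and 402 CPM against 260, 241 and 201 CPM, yet controls held 437, 440 and 263 CPM.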
